A study of Mus musculus with 3 samples.

Results

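The genes described here are DNA repair genes whose RNA was recovered with Mettl3 or Zfp217 from nuclei of CCE cells, a line of mouse embryonic stem (ES) cells. They were chosen by name: transcripts annotated as protein-coding whose symbol begins with Rad and a digit, Xrcc, Brca, Fanc, Mlh, Ercc, Parp and a digit, or Msh and a digit from 2 to 6, or is Lig1, Lig3, Lig4, Atm, Atr, Xpa or Xpc. The rule found 48 transcripts of 35 genes, among 8672 protein-coding transcripts of 6505 genes listed in either deposited table. The Mettl3 table held 29 of them, from 25 genes, and the Zfp217 table held 33, from 26 genes. With 14 transcripts in both tables, they made up 62 entries in all.

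RNA immunoprecipitation sequencing (RIP-seq) recovers a protein with an antibody and sequences the RNA that comes down with it. There were 3 libraries from untreated CCE cells grown without feeder cells on gelatin in serum and leukemia inhibitory factor: 1 Mettl3 RIP, 1 Zfp217 RIP and 1 input. No group had a replicate, so no difference below has a replicate check and no test was made. Each table gave the RIP and input level of a transcript in FPKM (fragments counted per kilobase of its length, for a library of fixed size), and both tables used the same input library. A control immunoprecipitation was not analysed here. Because the libraries are bulk RNA, fewer cells with a transcript and less of it per cell cannot be told apart.

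Mettl3 carries out the methylation of adenosines in messenger RNA known as m6A, which is common near stop codons and lies within a short sequence consensus of which GGACT is a typical form. Zfp217 has zinc fingers, works at chromatin, and has been reported to bind Mettl3 in ES cells. The genes themselves mend different kinds of damage: homologous recombination and end joining rejoin double-strand breaks, base excision repair with single-strand break repair and nucleotide excision repair replace damaged bases, mismatch repair corrects copying errors, the Fanconi anaemia pathway unhooks crosslinks, and checkpoint kinases halt the cell cycle meanwhile. ES cells divide fast and are known to rely on homologous recombination more than differentiated cells do.

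To show what such sites look like in the RNAs discussed below, the GGACT nearest the end of the coding sequence is given for 1 transcript in each of several pathways, the one with the highest RIP level that GENCODE M21 holds with a 3′ UTR and this motif. The sequences are those of GENCODE M21 on build GRCm38, in transcript orientation, with GGACT in capitals and 10 bases on each side, and each lies within 1 exon.
Brca2, coding sequence, chr5:150569456-150569480, plus strand: agtctctcagGGACTgtagaggcga
Lig4, coding sequence, chr8:9971305-9971329, minus strand: ccatttatttGGACTtgtatgctgt
Lig3, last base of the stop codon and 3′ UTR, chr11:82801504-82801528, plus strand: ctccctgctaGGACTttggtcttcc
Rad23b, coding sequence, chr4:55389898-55389922, plus strand: atttcctgaaGGACTtgtgattcaa
Fanci, 3′ UTR, chr7:79449816-79449840, plus strand: tccgttaggaGGACTttcctgggca
Atm, coding sequence, chr9:53440125-53440149, minus strand: ctctttgattGGACTatgaatcctt
Rad18, coding sequence, chr6:112644594-112644618, minus strand: ttttctcctcGGACTcagactcatg
Rad54l2, coding sequence, chr9:106693359-106693383, minus strand: acccagtgctGGACTtaaggggcca
In Lig3 the motif began on the last base of the TAG stop codon, and in Brca2 it began 46 bases before the end of the coding sequence, counting the stop codon as its end. In Rad23b the distance was 90 bases, in Rad18 it was 121 bases, and in Rad54l2, the farthest of those shown, it was 658 bases. In Fanci the motif began 115 bases past the stop codon. These letters are a description: no methylation was measured in these libraries. GGACT, searched on the transcript strand, was held by 2.20% of consecutive 25-base windows of the repair transcripts and by 2.18% of those of all listed protein-coding transcripts.

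Library depth, recovered from the steps between low FPKM values, was about 9770000 fragments for the Mettl3 RIP, 7090000 for the Zfp217 RIP and 6010000 to 6130000 for the input. The tables listed only transcripts of at least 1 FPKM in the RIP and, where the input was above 0, at least 1.5-fold higher in the RIP than in the input. A transcript that is not listed was therefore below one of these limits or removed by a criterion that the sources used here do not give, and these cannot be told apart. Of 8 ES cell markers, 5 were listed (Pou5f1, Nanog, Sox2, Klf4 and Esrrb), and 3 had a listed transcript above 1 FPKM in the input. Sox2 had 75.8 FPKM in the Mettl3 RIP, 90.0 FPKM in the Zfp217 RIP and 42.2 FPKM in the input of the Mettl3 table. Klf4 had 53.6 FPKM in the Mettl3 RIP against 0.00253 FPKM in the input. Zfp42, Dppa5a and Tdgf1 were not listed, which says nothing of their level. None of 3 primitive endoderm and 3 fibroblast markers was listed, which the limits make uninformative about their level.

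Of 73 protein-coding genes in GENCODE M21 that the name rule fits, 16 were listed in both tables, 9 in the Mettl3 table only, 10 in the Zfp217 table only and 38 in neither. This is 34.2% of the genes in the Mettl3 table, where 23.6% of all 21877 protein-coding genes were listed, and 35.6% in the Zfp217 table, where 19.1% were. The background includes genes that ES cells do not express, and no test of the difference was made. One further gene that the rule would fit, Ercc6l2, appeared under another symbol and is not counted among the 73. It had 1.18 FPKM in the Mettl3 RIP against 0.0358 FPKM in the input, and 3.03 FPKM in the Zfp217 RIP against 0.0364 FPKM in the input.

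The listed genes were spread over the pathways. Homologous recombination had 9 of 14 genes listed in at least 1 table. Rad51l1, Rad54b and Rad54l were in both, Brca2, Rad50, Rad51ap1 and Xrcc2 in the Mettl3 table only, and Rad51l3 and Rad52 in the Zfp217 table only. Nucleotide excision repair had 7 of 11: Ercc2 and Ercc4 among those in both, Rad23b and Xpa with Mettl3 only, and Ercc1 and Ercc8 with Zfp217 only. The Fanconi anaemia pathway had 5 of 10: Fance and Fancf in both, Fancb with Mettl3 only, and Fanci and Fancm with Zfp217 only.

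Mismatch repair had the smallest share, with 1 of 7 genes listed. Over all protein-coding genes, 23.6% were listed in the Mettl3 table and 19.1% in the Zfp217 table. The share of all genes in at least 1 table was not computed, and each pathway has too few genes to read against such shares. End joining had 2 of 4 (Lig4 and Xrcc6, both tables), base excision and single-strand break repair had 2 of 6 (Lig1 and Lig3, both tables; not Parp1, Parp2, Parp3 or Xrcc1), and the checkpoint had 3 of 6 (Atm and Rad9b in both tables, Atr with Zfp217). Rad18, the only post-replication repair gene that the rule takes, was in both tables. Among 14 genes that fit the name rule but were placed in none of these pathways, Parp16 was in both tables. Ercc6l and Rad54l2 were in the Mettl3 table, and Parp6 and Parp9 in the Zfp217 table. These genes are included in all totals given for repair genes and transcripts.

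**Figure D1:**
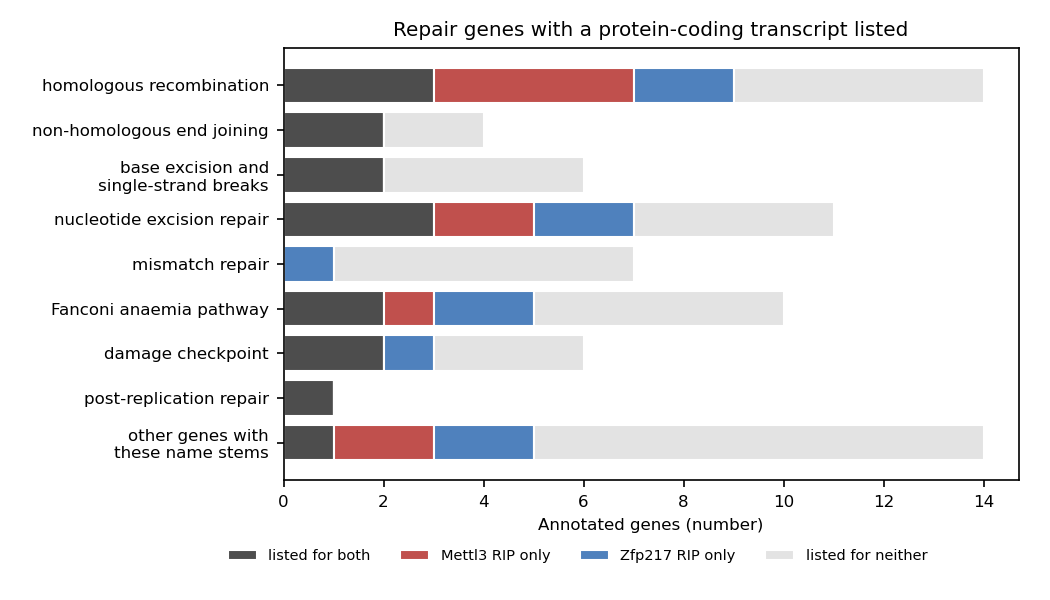
Number of annotated genes per repair pathway with a protein-coding transcript listed for both proteins, for the Mettl3 RIP only, for the Zfp217 RIP only or for neither. Bars run to 14 genes for homologous recombination, of which 9 were listed, and to 7 genes for mismatch repair, of which 1 was.

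The size of a difference was judged on log2((RIP + 1)/(input + 1)), with levels in FPKM, a scale on which ratios of low levels come out too small, among transcripts whose mean of RIP and input was at least 1 FPKM. On this scale 7 of 20 repair transcripts that passed the level filter, or 35.0%, were at least 2-fold above the input in the Mettl3 RIP, while 48.4% of all protein-coding transcripts that passed were. For Zfp217, 11 of 22, or 50.0%, were at least 2-fold above the input, beside 45.2% of all. The median log2 ratio was 0.81 for the repair transcripts and 0.98 for all in the Mettl3 RIP, and 1.07 for the repair transcripts and 0.91 for all in the Zfp217 RIP. With 1 transcript per gene, 6 of 19 genes were at least 2-fold above the input for Mettl3, beside 46.2% of all genes, and 8 of 16 for Zfp217, beside 42.7%. The share was thus below the background for Mettl3 and slightly above it for Zfp217, differences of a few transcripts that were not tested. With a 3-fold rule the Mettl3 share was above the background, at 30% beside 25.9% of all, and without the level filter the Zfp217 share was below it, at 51.5% beside 53.3%.

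Many of these counts rested on transcripts whose input was at or near 0. A transcript with an input under 0.01 FPKM that passes the level filter is at least 2-fold higher by construction. Leaving such transcripts out, 4 of 17 repair transcripts passed the 2-fold rule for Mettl3, beside 38% of all, and 5 of 16 for Zfp217, beside 27.8% of all. Of those with an input of at least 1 FPKM, 1 of 12 passed it for Mettl3, beside 34.5% of all, and 2 of 10 for Zfp217, beside 20.7%. The single transcript for Mettl3 was Rad23b, and those for Zfp217 included a Lig1 transcript. Among transcripts of the same genes annotated as nonsense-mediated decay, processed or retained-intron, 2 of 5 that passed the level filter passed the 2-fold rule for Mettl3, beside 55.2% of all of these classes, and 6 of 10 for Zfp217, beside 55.7%.

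**Figure D2:**
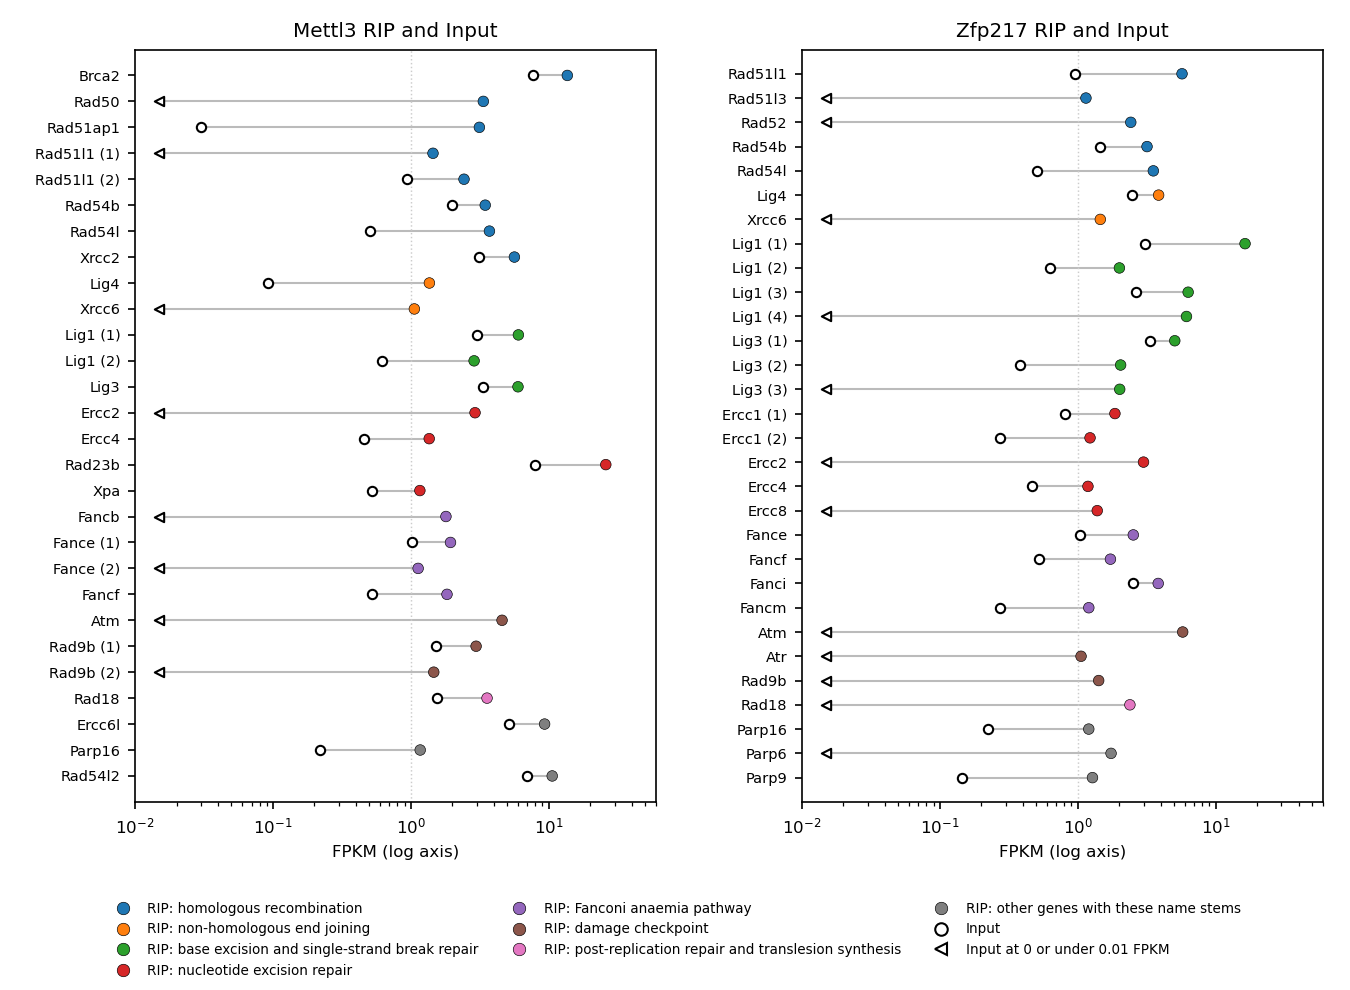
FPKM on a log axis in the RIP (filled points, coloured by pathway) and in the input (open points) for the listed repair transcripts whose values are given in the text, the Mettl3 table on the left and the Zfp217 table on the right. Triangles at the left edge stand for an input at 0 or under 0.01 FPKM, as for Atm in both panels. Numbers after a symbol tell its transcripts apart, and Rad23b in the Mettl3 RIP, at 25.9 FPKM, is the highest point.

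In homologous recombination, Brca2, which prepares resected ends for the search for a homologous template, was the most abundant transcript. It stood at 13.6 FPKM in the Mettl3 RIP against 7.71 FPKM in the input, about 1410 and 500 fragments, a ratio of 1.77 (95% counting interval 1.60 to 1.96). The intervals here cover counting error in these libraries only, and say nothing of the spread between experiments. Those of RIP over input also ignore the limits of the tables, which kept only transcripts that were higher in the RIP. An interval lying wholly on that side is therefore favoured in advance and is not by itself evidence of enrichment. Brca2 was not listed for Zfp217, where at least 11.6 FPKM would have been needed if the visible limits were the only ones.

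Rad54l, a motor protein that acts during strand invasion, passed the 2-fold rule for both proteins. It had 3.72 FPKM in the Mettl3 RIP against 0.503 FPKM in the input, a ratio of 7.39 (3.60 to 17.6). It had 3.53 FPKM in the Zfp217 RIP against 0.508 FPKM in the input, a ratio of 6.95 (3.33 to 16.8). The wide intervals come with an input of only about 8 fragments.

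Rad51l1, also called Rad51b and part of a complex that acts early in recombination, had a transcript (ENSMUST00000171210) listed in both tables. It had 2.43 FPKM in the Mettl3 RIP against 0.946 FPKM in the input (ratio 2.57, 1.27 to 5.75). It had 5.70 FPKM in the Zfp217 RIP against 0.956 FPKM in the input (ratio 5.96, 3.06 to 13.0). The Zfp217 value passed the 2-fold rule with 1 FPKM added and the Mettl3 value did not. Its other listed transcript had 1.45 FPKM in the Mettl3 RIP and was listed at 0 in the input.

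The other recombination genes had ratios on both sides of the rule. Rad54b, a relative of Rad54l, was listed with different transcripts: a 2403-base one at 3.46 FPKM in the Mettl3 RIP against 1.99 FPKM in the input (1.74, 1.12 to 2.79), and a 652-base one at 3.18 FPKM in the Zfp217 RIP against 1.45 FPKM in the input (2.19, 0.648 to 9.42, an interval that includes 1). Xrcc2, which belongs to the same complex, had 5.64 FPKM in the Mettl3 RIP against 3.12 FPKM in the input (1.81, 1.34 to 2.48). Rad50, the coiled-coil subunit of the complex that first holds broken ends, had 3.36 FPKM in the Mettl3 RIP and was listed at 0 in the input. These Mettl3 values put Xrcc2 and Rad54b under the 2-fold rule and Rad50 over it.

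Rad51ap1, which promotes the pairing of homologous strands, had 3.14 FPKM in the Mettl3 RIP against 0.0302 FPKM in the input, less than 1 fragment there, so no fold is given. In the Zfp217 RIP, Rad52, an annealing protein, had 2.42 FPKM and Rad51l3, also called Rad51d and a partner of Xrcc2, had 1.15 FPKM. Both were listed at 0 in the input, and Rad51l3, at about 9 fragments, was under the level filter.

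In end joining, Lig4, the ligase that seals double-strand breaks with Xrcc4, was listed with a different transcript in each table. Mettl3 had the 3105-base form with a 3′ UTR of 166 bases, at 1.36 FPKM in the RIP against 0.0928 FPKM in the input, under 2 fragments there. Zfp217 had the 5028-base form with a 3′ UTR of 1994 bases, at 3.86 FPKM in the RIP against 2.49 FPKM in the input (1.55, 1.15 to 2.09). Both forms have the same coding length of 2736 bases, so reads of the coding sequence had to be divided between them by estimation. Xrcc6, the Ku70 subunit that caps broken ends, was listed with a 797-base transcript at 1.06 FPKM in the Mettl3 RIP and 1.46 FPKM in the Zfp217 RIP, both about 7 fragments, and at 0 in the input. GENCODE M21 marks the coding sequence of this transcript as incomplete at its end. No other protein-coding Xrcc6 transcript was listed, so these values do not describe its full-length RNA.

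The ligases of base excision and single-strand break repair had the most listed transcripts per gene, 4 for Lig1 and 3 for Lig3 over both tables. For Lig1, which also joins the fragments of the lagging strand at replication, ENSMUST00000125324 had 6.02 FPKM in the Mettl3 RIP against 3.02 FPKM in the input, a ratio of 2.00. The same transcript had 16.3 FPKM in the Zfp217 RIP against 3.05 FPKM in the input, a ratio of 5.34, and was the highest repair transcript of that RIP. Its length was not in GENCODE M21, so no counting interval was computed.

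Other Lig1 transcripts lay on both sides of the 2-fold rule. ENSMUST00000147735 had 2.88 FPKM in the Mettl3 RIP against 0.620 FPKM in the input (4.64, 2.46 to 9.66), and 2.00 FPKM in the Zfp217 RIP against 0.632 FPKM in the input (3.17, 1.60 to 6.85). With 1 FPKM added, the Mettl3 value passed and the Zfp217 value did not, the reverse of ENSMUST00000125324. In the Zfp217 RIP, ENSMUST00000148471 had 6.31 FPKM against 2.66 FPKM in the input (2.37, 1.70 to 3.36), just under the rule, and ENSMUST00000156525 had 6.14 FPKM and was listed at 0 in the input. GENCODE M21 no longer calls ENSMUST00000147735, ENSMUST00000148471 and ENSMUST00000156525 protein-coding, and transcripts of 1 gene share reads, so their values are not independent.

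Lig3, the partner of Xrcc1 that is also the ligase of mitochondria, was listed in both tables with its 4560-base transcript. It had 5.98 FPKM in the Mettl3 RIP against 3.32 FPKM in the input (1.80, 1.41 to 2.32), and 5.05 FPKM in the Zfp217 RIP against 3.35 FPKM in the input (1.51, 1.15 to 1.98). Neither passed the 2-fold rule. For Zfp217 alone, ENSMUST00000131537 had 2.05 FPKM in the RIP against 0.380 FPKM in the input (5.38, 1.85 to 21.3), and ENSMUST00000173347 had 2.01 FPKM and was listed at 0 in the input, so the gene had transcripts on both sides of the rule.

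In nucleotide excision repair, Rad23b, which steadies the damage sensor Xpc and shuttles ubiquitinated proteins, gave the highest RIP level of all repair transcripts. It had 25.9 FPKM in the Mettl3 RIP against 7.95 FPKM in the input, about 930 and 179 fragments, a ratio of 3.26 (2.78 to 3.85). It was not listed for Zfp217, where about 11.9 FPKM would have been needed if the visible limits were the only ones.

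Ercc2, the XPD helicase of TFIIH that opens DNA around the lesion, had nearly the same level in both RIPs. It had 2.92 FPKM in the Mettl3 RIP and 3.0 FPKM in the Zfp217 RIP, about 98 and 73 fragments, and was listed at 0 in the input of both tables. Ercc4, the nuclease subunit XPF, had 1.36 FPKM in the Mettl3 RIP against 0.460 FPKM in the input (2.95, 1.42 to 6.88), and 1.19 FPKM in the Zfp217 RIP against 0.465 FPKM in the input (2.55, 1.17 to 6.14). Its partner Ercc1 was listed for Zfp217 with 2 transcripts, at 1.86 FPKM in the RIP against 0.815 FPKM in the input (2.28, 0.849 to 7.12) and at 1.23 FPKM in the RIP against 0.272 FPKM in the input (4.52, 0.935 to 43.0). Neither interval for Ercc1 excluded 1. Those for Ercc4 did, which the limits of the tables favour in advance. Xpa, which checks the damage, had 1.16 FPKM in the Mettl3 RIP against 0.526 FPKM in the input (2.21, 0.683 to 9.31), and Ercc8, a factor of transcription-coupled repair, had 1.38 FPKM in the Zfp217 RIP and was listed at 0 in the input.

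In the Fanconi anaemia pathway, 0 of 2 transcripts that passed the level filter passed the 2-fold rule for Mettl3, beside 48.4% of all, and 0 of 3 for Zfp217, beside 45.2% of all, too few to read against the background. Fancf, an adaptor of the core ubiquitin ligase complex encoded by a gene with a single annotated transcript, had 1.83 FPKM in the Mettl3 RIP against 0.521 FPKM in the input (3.51, 1.34 to 11.6), and 1.73 FPKM in the Zfp217 RIP against 0.527 FPKM in the input (3.27, 1.18 to 11.2). Fance, which links the core complex to Fancd2, had 1.94 FPKM in the Mettl3 RIP against 1.02 FPKM in the input, and 2.53 FPKM in the Zfp217 RIP against 1.03 FPKM in the input, ratios of 1.90 and 2.45. A second Fance transcript, which GENCODE M21 puts in the class of nonsense-mediated decay, had 1.13 FPKM in the Mettl3 RIP and was listed at 0 in the input.

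Of the Fanconi genes in 1 table, Fanci, which is ubiquitinated together with Fancd2, had 3.83 FPKM in the Zfp217 RIP against 2.52 FPKM in the input (1.52, 1.12 to 2.08). Fancm, the motor that brings the core complex to the fork, had 1.20 FPKM in the Zfp217 RIP against 0.275 FPKM in the input, a ratio of 4.37. Fancb, an X-linked core subunit, had 1.80 FPKM in the Mettl3 RIP and was listed at 0 in the input.

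In the checkpoint, Atm, the kinase activated by double-strand breaks, had the largest gap between RIP and input. Its 9819-base transcript had 4.59 FPKM in the Mettl3 RIP and 5.77 FPKM in the Zfp217 RIP, about 434 and 396 fragments. In the input it was listed at 0.000096 FPKM in the Mettl3 table and 0.000112 FPKM in the Zfp217 table, far less than 1 fragment, so no fold is given. No other protein-coding Atm transcript was listed, and what the input held of them is not given.

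Atr, the kinase of stalled replication forks, had 1.06 FPKM in the Zfp217 RIP, just above the limit of the table, and was listed at 0 in the input. Rad9b, a paralog of the clamp subunit Rad9a, had a 717-base transcript at 1.47 FPKM in the Mettl3 RIP and 1.42 FPKM in the Zfp217 RIP, both under 10 fragments and at 0 in the input. GENCODE M21 marks the coding sequence of that transcript as incomplete at its start. A 2371-base Rad9b transcript had 2.97 FPKM in the Mettl3 RIP against 1.53 FPKM in the input (1.95, 1.18 to 3.36).

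Rad18, the ubiquitin ligase that marks PCNA so that a blocked fork can be bypassed, was listed with a different transcript in each table. The 2577-base one had 3.57 FPKM in the Mettl3 RIP against 1.56 FPKM in the input (2.29, 1.43 to 3.81). The 2136-base one had 2.39 FPKM in the Zfp217 RIP and was listed at 0 in the input, and it alone passed the 2-fold rule.

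Genes placed in none of the pathways included some of the most abundant entries for Mettl3. Rad54l2, a nuclear motor protein known as a partner of the androgen receptor, had 10.6 FPKM in the Mettl3 RIP against 6.93 FPKM in the input (1.53, 1.36 to 1.73). Ercc6l, a helicase of ultrafine bridges in mitosis, had 9.33 FPKM in the Mettl3 RIP against 5.12 FPKM in the input (1.82, 1.52 to 2.19). Parp16, an ADP-ribosyltransferase of the endoplasmic reticulum, had 1.17 FPKM in the Mettl3 RIP against 0.220 FPKM in the input and 1.20 FPKM in the Zfp217 RIP against 0.223 FPKM in the input, ratios of 5.31 (1.63 to 27.4) and 5.40 (1.60 to 28.4). Parp6 had 1.74 FPKM in the Zfp217 RIP and was listed at 0 in the input, and Parp9 had 1.28 FPKM in that RIP against 0.146 FPKM in the input (8.78, 2.20 to 76.3). None of these passed both the level filter and the 2-fold rule.

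The RIP levels of the 14 transcripts in both tables could be set against each other without the input. On the scale with 1 FPKM added, none exceeded its Zfp217 level by 2-fold or more in the Mettl3 RIP, beside 5.15% of 2813 protein-coding transcripts in both tables. The Lig1 transcript ENSMUST00000125324 was at least 2-fold lower, at 6.02 FPKM in the Mettl3 RIP against 16.3 FPKM in the Zfp217 RIP, beside 2.92% of all. The median log2 ratio of Mettl3 over Zfp217 was -0.02 for the 14 and 0.08 for all.

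Among the others whose values are given, Rad51l1 and Atm were lower in the Mettl3 RIP, with a counting interval that excluded 1. The share of all protein-coding transcripts with such an interval was not computed. The fragment counts are estimates, and errors in dividing reads between transcripts or in library depth are not in the intervals. Rad51l1 had 2.43 FPKM in the Mettl3 RIP against 5.70 FPKM in the Zfp217 RIP, a ratio of 0.426 (0.282 to 0.636). Atm had 4.59 FPKM in the Mettl3 RIP against 5.77 FPKM in the Zfp217 RIP (0.796, 0.693 to 0.914). The intervals of Lig1 ENSMUST00000147735, Lig3, Ercc4, Rad54l, Fancf, Rad9b, Parp16, Ercc2 and Xrcc6 included 1, the tightest being Lig3 at 1.18 (0.968 to 1.45) and the widest Rad9b at 1.03 (0.315 to 3.62). Fance, at a ratio of 0.768, had no interval because its length was not known.

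**Figure D3:**
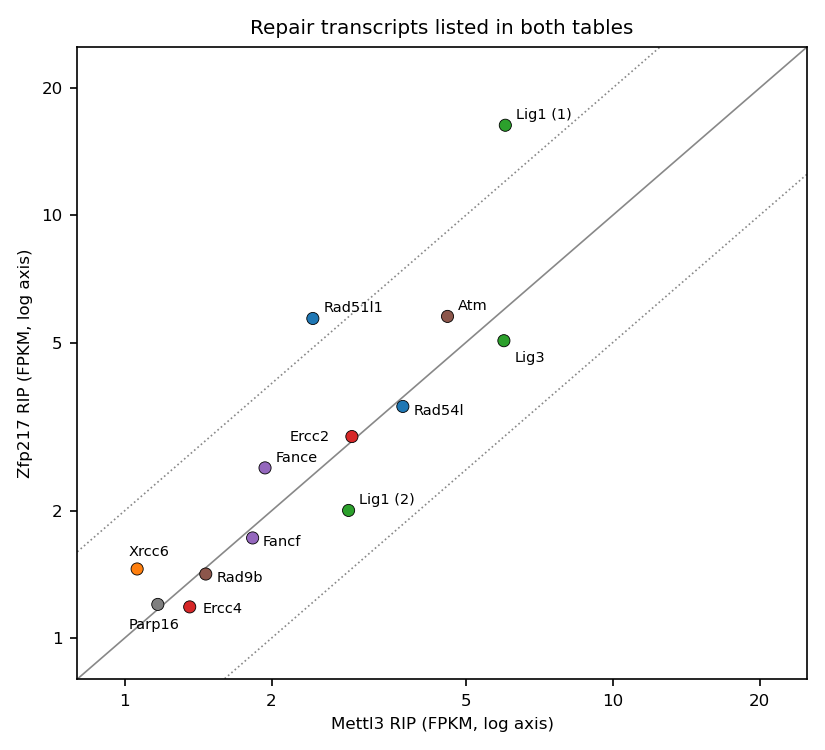
FPKM in the Mettl3 RIP (x axis) and in the Zfp217 RIP (y axis), both on log axes, for the repair transcripts in both tables whose values are given in the text, coloured by pathway. The solid line marks equal levels and the dotted lines plain 2-fold differences with nothing added. Lig1 (1), which is ENSMUST00000125324, and Rad51l1 lie beyond the upper dotted line, and Lig1 (2) is ENSMUST00000147735.

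An input at or near 0 was about as common among repair transcripts as elsewhere. It was found in 8 of 29, or 27.6%, in the Mettl3 table, where 27.7% of all protein-coding transcripts had it, and in 12 of 33, or 36.4%, in the Zfp217 table, where 37.1% had it. Across all protein-coding transcripts it was more frequent the more transcripts a gene has. In the Mettl3 table it was 6.28% for genes with 1 annotated transcript and 41.9% for genes with 10 or more, and in the Zfp217 table it was 13.6% and 49.2%.

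The repair transcripts spread over the same classes. Of those from genes with 10 or more transcripts, 3 of 7 in the Mettl3 table and 7 of 13 in the Zfp217 table had such an input. Of those from genes with 1 to 4 transcripts, 1 of 8 in the Mettl3 table and 0 of 3 in the Zfp217 table did. Genes with many transcripts include Lig3, with 12, and Rad52, with 14. The part of the number of transcripts in these values was not tested.

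**Figure D4:**
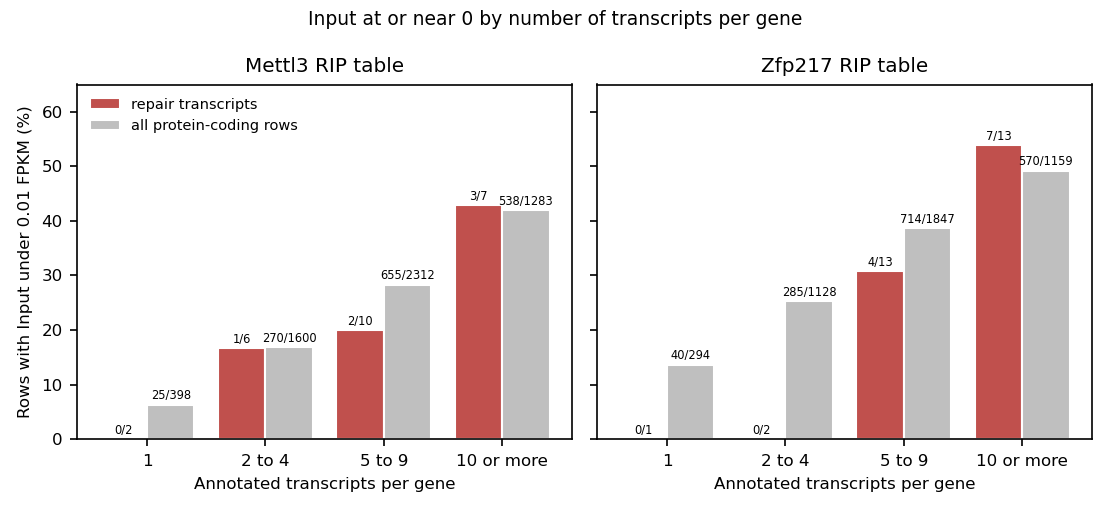
Percent of listed protein-coding transcripts whose input was under 0.01 FPKM, by the number of annotated transcripts of the gene, for repair transcripts (red) and all protein-coding entries (grey), the Mettl3 table on the left and the Zfp217 table on the right. Labels give the transcripts with such an input over all in the class. The grey bars are higher with more transcripts per gene in both tables, from 25 of 398 to 538 of 1283 for Mettl3.

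In features that the rule did not use, the repair transcripts resembled the other listed ones. The 42 of 48 that GENCODE M21 holds ran from 652 to 10724 bases. The median was 2780 bases in the Mettl3 table, against 3159 bases for all its protein-coding transcripts, and 2482 bases in the Zfp217 table, against 2394 bases for all. GGACT was in 36 of the 42, or 85.7%. By table it was in 88.0% of the repair transcripts and 88.7% of all for Mettl3, and in 82.8% of the repair transcripts and 84.4% of all for Zfp217. Its pooled density was 0.909 per kilobase for repair transcripts against 1.02 for all in the Mettl3 table, and 1.11 against 1.10 in the Zfp217 table.

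Outside the name rule, a list of 115 further repair genes was read in the same way. Of these, 54 were in the Mettl3 table, where 23.6% of all protein-coding genes were, 45 in the Zfp217 table, where 19.1% were, and 65 in at least 1 of them. Of its transcripts that passed the level filter, 26 of 49 (53.1%) in the Mettl3 RIP, beside 48.4% of all, and 16 of 40 (40.0%) in the Zfp217 RIP, beside 45.2% of all, passed the 2-fold rule. The median log2 ratio was 1.18 for the list and 0.98 for all in the Mettl3 RIP, and 0.86 for the list and 0.91 for all in the Zfp217 RIP, so both lay near the background. Mismatch repair had 0 of 3 genes listed, too few to read against the shares of all genes.

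Among those with at least 1 FPKM in both libraries, the highest and lowest ratios of each pathway are named. In nucleotide excision repair, Cul4b, the scaffold of a ubiquitin ligase that acts at ultraviolet lesions, had 35.6 FPKM in the Mettl3 RIP against 11.3 FPKM in the input (ratio 3.16), and its highest ratio in the Zfp217 RIP was 4.80, for a transcript at 9.40 FPKM against 1.96 FPKM in the input. The lowest ratios were those of Cdk7, a kinase of TFIIH, at 1.51 in the Mettl3 RIP, and of Cetn2, a partner of Xpc, at 1.78 in the Zfp217 RIP. In base excision repair the order of a pair of uracil glycosylases differed between the tables. Smug1 had 4.59 FPKM in the Mettl3 RIP against 1.25 FPKM in the input (3.66) and 2.19 FPKM in the Zfp217 RIP against 1.27 FPKM in the input (1.73). Ung had 5.08 FPKM in the Mettl3 RIP against 3.03 FPKM in the input (1.68) and 10.1 FPKM in the Zfp217 RIP against 3.06 FPKM in the input (3.30). Whether the difference between them exceeds the spread between experiments cannot be told from 1 library each.

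In the checkpoint, Hus1 and Trp53 had the highest ratios among transcripts with at least 1 FPKM in both libraries. Hus1, a subunit of the clamp that Rad9a belongs to, had 17.5 FPKM in the Mettl3 RIP against 5.44 FPKM in the input (3.21). Trp53, which encodes p53, had 8.53 FPKM in the Zfp217 RIP against 2.21 FPKM in the input (3.86). The lowest there were Rnf168, a ubiquitin ligase at breaks, at 2.26 in the Mettl3 RIP and Mdc1, an adaptor at breaks, at 1.67 in the Zfp217 RIP. In post-replication repair, 5 of 6 transcripts that passed the level filter also passed the 2-fold rule for Mettl3, beside 48.4% of all, and 2 of 5 for Zfp217, beside 45.2% of all. With at least 1 FPKM in both libraries, Ube2v2, a partner in PCNA ubiquitination, led for Mettl3. It had 5.96 FPKM in the RIP against 1.35 FPKM in the input (4.41). Rev3l, the catalytic subunit of a translesion polymerase, had the lowest ratio of 2.20. For Zfp217 with this minimum, the highest ratio was 1.85, for Polh, another translesion polymerase, and the lowest 1.57, for Ube2a, the partner of Rad18. The 2 that passed the 2-fold rule for Zfp217 had an input under this minimum. They were a Poli transcript at 1.84 FPKM against 0.335 FPKM, and a Ube2v2 transcript at 2.63 FPKM listed at 0 in the input.

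In homologous recombination, 7 of 14 transcripts that passed the level filter passed the 2-fold rule for Mettl3, beside 48.4% of all. For Zfp217 it was 1 of 9, beside 45.2% of all. All of those that passed had an input under 1 FPKM, so they are not among the ratios ranked here. With at least 1 FPKM in both libraries, Bard1, the partner of Brca1, had the lowest ratio for Mettl3. It had 11.2 FPKM in the Mettl3 RIP against 7.44 FPKM in the input (1.51). Brip1, a helicase that binds Brca1, had the highest, at 1.90. For Zfp217, with the same minimum, the ratio was 2.07 for Recql and 1.56 for Helq, both helicases. In end joining, again with this minimum, Trp53bp1, which shields ends from resection, had 4.88 FPKM in the Mettl3 RIP against 2.14 FPKM in the input (2.28). Nhej1, a factor that aligns ends, had a ratio of 1.87. In the Fanconi anaemia pathway, Wdr48, which activates the deubiquitinase Usp1, had ratios of 1.64 in the Mettl3 RIP and 1.69 in the Zfp217 RIP, and Usp1 had 21.8 FPKM in the Zfp217 RIP against 14.2 FPKM in the input (1.54). Slx4, a scaffold of nucleases, was named only after its values were seen. It was the 1 of 3 further Fanconi transcripts past the level filter that passed the 2-fold rule in each RIP. Of all protein-coding transcripts past the filter, 48.4% passed for Mettl3 and 45.2% for Zfp217, and 3 are too few to read against these shares. Slx4 had 3.64 FPKM in the Mettl3 RIP against 0.472 FPKM in the input (7.72). It had 2.79 FPKM in the Zfp217 RIP against 0.477 FPKM in the input (5.86).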

How the data were processed

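Sample titles and the antibody labels gave the groups. Per the labels' protocols, nuclear lysate was incubated with antibody, protein G beads collected the complexes, and a TruSeq RNA kit was used for the libraries. The submitters' processing notes name CASAVA 1.4, Bowtie2, TopHat2 2.0.8, Cufflinks, Cuffdiff and mm9, without roles or settings. The authors deposited 2 tables of FPKM per Ensembl transcript with their log2 fold change, which differed from the log2 ratio of the FPKM values by at most 0.00466. FPKM of transcripts of 1 gene are estimates from shared reads, and a 0 can be a failed estimate. No strand setting is stated. Input values differed between the tables by a median factor of 0.989, so ratios were taken within a table.

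The pseudocount was 1 FPKM, the level filter a mean of 1 FPKM and the rule of size 2-fold. Library depth was estimated from transcripts of 300 to 1000 bases with at most 8 fragments, of which 89.4% to 93.0% gave whole fragments within 0.06. On 2 simulated tables of 200 transcripts the estimate fell within 1.17% of the depth set. The simulated levels came from whole fragment counts at a fixed fragment length, without noise. That figure therefore checks the computation and does not give the error of the depths estimated here. Ratio intervals are 95% exact (Clopper-Pearson) intervals of the 2 fragment counts. Those of RIP over input make no allowance for the limits by which transcripts were listed. Transcript features came from GENCODE M21, which held 88.3% of the Mettl3 and 88.8% of the Zfp217 table by identifier, and no mm9 coordinate was used. The members, pathway lists and further repair genes were chosen with earlier results of these data known. Some members and their values are not reported here. Values were set out in full for genes in both tables, for genes with transcripts on both sides of the 2-fold rule and for those with both levels at least 1 FPKM, and likewise for the highest and lowest ratios among the further repair genes. Python 3.11.15, numpy 2.4.6, scipy 1.17.1, pandas 2.3.3 and matplotlib 3.10.9 were used.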

Additional observations from a re-analysis of the deposited data

Results flagged for a closer look

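Transcripts of the same genes that are not annotated as protein-coding were outside the comparisons above: 26 in the Mettl3 table and 20 in the Zfp217 table. Of those that passed the level filter, 2 of 5 were at least 2-fold above the input in the Mettl3 RIP, beside 55.2% of all transcripts of these classes, and 6 of 10 in the Zfp217 RIP, beside 55.7%. The shares say nothing particular to repair genes. Those given here are of Rad1, Rad18, Rad52 and Xrcc2.

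Rad1, a subunit of the checkpoint clamp, was listed with 2 nonsense-mediated decay transcripts in the Zfp217 RIP. ENSMUST00000168408 had 2.18 FPKM against 0.406 FPKM in the input, and ENSMUST00000170100 had 4.42 FPKM and was listed at 0 in the input. A processed transcript of Rad18 (ENSMUST00000132590) had 4.69 FPKM in the Mettl3 RIP against 1.75 FPKM in the input, a ratio of 2.68. In the Zfp217 RIP, a retained-intron transcript of Rad52 had 2.31 FPKM and a processed transcript of Xrcc2 had 2.07 FPKM, about 6 and 5 fragments, and both were listed at 0 in the input.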

How the results depend on the processing

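Of 43 alternatives to the main values, 9 moved a count by over 1.5 times or a share or median beyond its interval. Those intervals are 95% binomial ranges that take the repair transcripts as independent, which transcripts of 1 gene are not. They serve only as a yardstick for the size of a change and do not measure the spread between experiments. With so few transcripts the intervals are wide, so a value that stays within one says little. The other 34 include changes with a pseudocount of 0.1 FPKM. Mettl3 genes went from 6 to 9 of 19, while the share of all genes went from 46.2% to 64.4%. Zfp217 genes went from 8 to 12 of 16, while the share of all genes went from 42.7% to 58.7%. For Mettl3, the genes at least 2-fold higher numbered 3 of 16 with an input of at least 0.01 FPKM (37.7% of all genes) and 1 of 12 with an input of at least 1 FPKM (34.3% of all), and that higher minimum brought the share of transcripts to 8.33% (34.5% of all). For Zfp217, the share was 77.3% with a pseudocount of 0.1 FPKM (60.9% of all) and 20% with an input of at least 1 FPKM (20.7% of all), and the genes numbered 14 of 26 without the level filter (49.6% of all), 4 of 12 with an input of at least 0.01 FPKM (27.4% of all) and 2 of 8 with one of at least 1 FPKM (20.6% of all). With a pseudocount of 0.1 FPKM, all 28 single-transcript ratios of RIP over input became larger. A smaller pseudocount does this to any ratio above 1, as all listed ones are, so it says nothing of their stability. Between the RIPs, Rad51l1 joined Lig1 under that pseudocount, which made 2 transcripts at least 2-fold apart. No paired analysis was possible because each group had 1 library. Depth limits transcripts near 1 FPKM, where short ones rest on fewer than 10 fragments.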
